A study of Mus musculus with 6 samples.

Results

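The 31 genes described here encode MHC class I chains and proteins that make, trim and load the peptides they present, and were taken by symbol from a read count table of 31205 genes. All 31 had a row. They were measured by RNA-seq in DC2.4, a mouse dendritic cell line, in 3 control libraries and in 3 libraries of its derivative labelled as a knockout of PD-L1, which binds the inhibitory receptor PD-1 on T cells. The labels give both groups the same cell line, genotype as the only difference and no treatment, and the series title places the comparison in a study of dendritic cell ferroptosis under chemotherapy. No label says how the knockout was made, whether the line is 1 clone or whether the 3 libraries of a group are separate cultures. The p-values therefore cover only the spread among these libraries, and that spread may be technical.

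MHC class I molecules show peptides from inside the cell to CD8 T cells. Proteasomes, among them an interferon-inducible form called the immunoproteasome, cleave proteins into peptides. The transporter TAP carries these into the endoplasmic reticulum, where chaperones and the bridging protein tapasin load them onto a heavy chain paired with the light chain beta-2 microglobulin, and aminopeptidases trim them to length. Dendritic cells also load peptides from material they have taken up, which is called cross-presentation and is what these cells are known for in priming CD8 T cells.

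Library totals ran from 10918498 to 23250065 counts. For Cd274, the gene of PD-L1, the control libraries 1, 2 and 3 held 52, 99 and 171 reads and the knockout libraries 102, 81 and 163 (edgeR log2 fold change 0.28, SE 0.25, adjusted p = 0.415). The RNA level of the targeted gene thus gives no check of the labels. Of 16 markers of dendritic and myeloid cells, 12 had counts in every library, with a summed level of 1100 to 1178 counts per 1000000 (CPM, scaled by TMM factors) in control and 1018 to 1045 in knockout. Among them Csf1r (239 ± 41.2 to 145 ± 19.6 CPM, edgeR adjusted p = 0.0143) and Zbtb46 (7.60 ± 1.49 to 4.64 ± 0.56 CPM, edgeR adjusted p = 0.049) were lower and Cd80 (22 ± 2.87 to 31.9 ± 3.31 CPM, edgeR adjusted p = 0.0318) higher, and their part in the results was not tested. The dendritic markers Flt3 and Batf3 and the class II chains H2-Aa and H2-Ab1 were at or near 0. Of 6 fibroblast markers, Col1a1 and Fn1 had 2235 and 1382 counts in control library 2 and at most 5 and 3 in any other library. The remaining fibroblast markers stayed low in control library 2, with 22 counts for Col1a2, 10 for Col3a1 and 0 for Dcn and Pdgfra. Markers of T and B cells, epithelial cells and endothelial cells summed to less than 1 CPM in every library. Control library 2 stands apart by its Col1a1 and Fn1 counts. It does not by its chi-square per gene, 18.8 and 16.0 against control libraries 1 and 3, with 30.9 between those. Knockout library 1 differed most from its own group (a chi-square of 52.4 and 51.0 per gene against libraries 2 and 3, with 21.8 between those). Results are given with and without control library 2 and knockout library 1 where that changes a call.

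Transcripts of 5 of the 7 tested class I heavy chains and of the immunoproteasome subunit Psmb8 were higher in the knockout cells, while the light chain B2m, the transporter subunit Tap1 and most trimming peptidases were not called. The heavy chain genes and Psmb8 lie on chromosome 17, where 37.1% of all 593 tested genes were higher. With length and GC trends and chromosome medians removed, no heavy chain was called and Psmb8 still was. After a filter on low counts 30 of the 31 genes were tested with edgeR. At an adjusted p under 0.05, 10 were higher (33.3%) and 0 lower (2, Lnpep and Nlrc5, at an unadjusted p under 0.05, and 1, Lnpep, with DESeq2). Over all 11453 genes tested, 11.8% were higher and 13.5% lower, with a median log2 fold change of 0.01, while the median of the 30 tested members was 0.38. Of all calls 46.7% were higher, and 23.2% when libraries were scaled by total counts, with 5 members then higher and 1 lower. CPM of all 3 knockout libraries lay above all 3 control libraries for 14 of the 30, and below them for 0. Over all genes tested, 21.1% lay wholly above and 21.8% wholly below, 43% in all. These are bulk libraries, so a difference in the share of cells that express a gene and a difference in RNA per cell cannot be told apart.

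**Figure D1:**
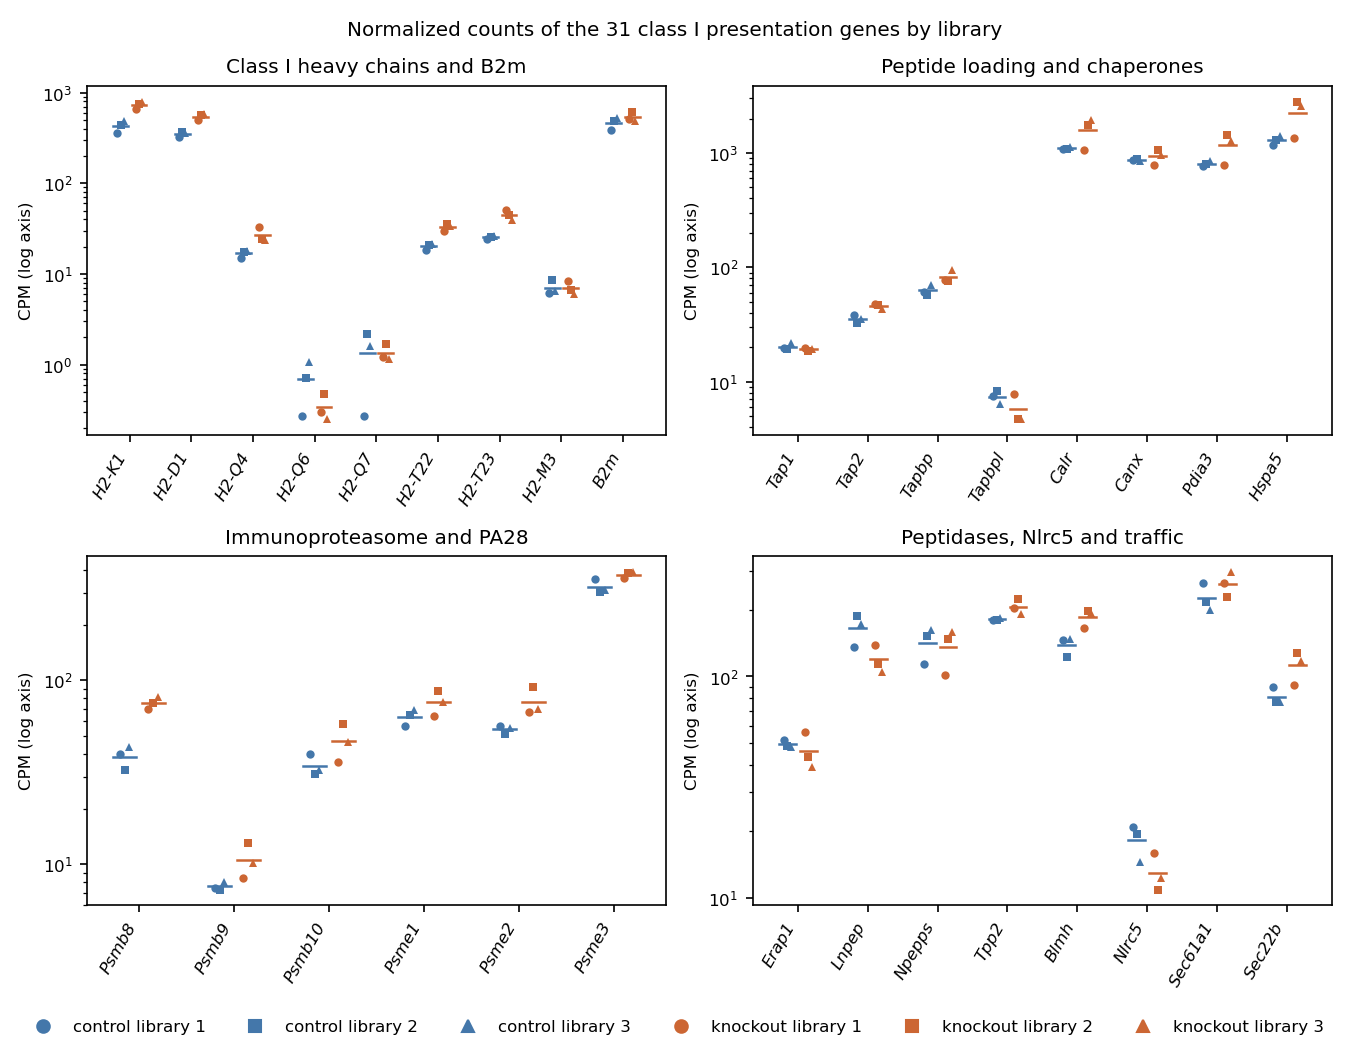
Normalized counts (CPM, log axis) of the 31 genes in each of the 6 libraries, by functional group. Symbols are libraries, horizontal bars are group means. H2-K1, H2-D1, H2-Q4, H2-T22, H2-T23 and Psmb8 have all knockout points above all control points, while Calr, Pdia3 and Hspa5 are high in knockout libraries 2 and 3 but not in knockout library 1.

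Class I heavy chains bind the peptide. H2-K1 and H2-D1 are the classical, highly expressed chains, and the H2-Q, H2-T and H2-M genes are non-classical relatives. The stretches before their start sites are shown because 5 heavy chains rose and the light chain was not called. Sequences are from RefSeq (GRCm38.p6, the mm10 assembly), 200 bases up to the start site, 5' to 3' on the gene's own strand. They cover chr17:34000348-34000547, minus strand for H2-K1 (the first of its start sites in the table), chr17:35262894-35263093, plus strand for H2-D1, chr17:36032702-36032901, minus strand for H2-T23 and chr2:122147487-122147686, plus strand for B2m. Capitals mark matches, on either strand, to 6 motifs: GTTTCACTTC (the interferon element of class I genes, read from the H2-K1 stretch itself), the core of an interferon response element (GAAA, any 2 bases, GAAA), a kappa B element (GGGA, any 4 bases, CC), a STAT element (TTC, any 3 bases, GAA), TGACG (the CRE core) and CCAAT (a Y box). Overlapping matches run together. Start sites are those of RefSeq. By the gene positions given below, which are from GENCODE M21, the H2-D1 stretch lies inside the gene and the H2-T23 stretch partly so.
H2-K1: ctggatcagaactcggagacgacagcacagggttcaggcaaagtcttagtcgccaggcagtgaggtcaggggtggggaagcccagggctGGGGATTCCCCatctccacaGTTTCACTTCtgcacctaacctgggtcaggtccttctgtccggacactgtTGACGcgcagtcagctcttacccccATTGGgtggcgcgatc
H2-D1: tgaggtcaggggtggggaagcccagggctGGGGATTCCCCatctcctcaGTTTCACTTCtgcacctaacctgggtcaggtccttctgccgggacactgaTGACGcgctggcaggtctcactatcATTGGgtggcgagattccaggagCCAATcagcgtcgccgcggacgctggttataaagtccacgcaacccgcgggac
H2-T23: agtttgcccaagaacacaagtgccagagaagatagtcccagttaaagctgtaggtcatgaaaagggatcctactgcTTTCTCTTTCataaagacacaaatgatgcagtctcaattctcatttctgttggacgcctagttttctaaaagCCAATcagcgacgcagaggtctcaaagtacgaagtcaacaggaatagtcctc
B2m: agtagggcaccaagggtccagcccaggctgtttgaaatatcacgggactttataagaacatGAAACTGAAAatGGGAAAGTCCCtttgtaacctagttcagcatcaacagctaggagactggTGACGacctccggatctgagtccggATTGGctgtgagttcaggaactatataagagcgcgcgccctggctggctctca

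In H2-K1 the kappa B letters began 111 and 110 bases before the start site, the class I interferon element 91 and the CRE core 41, and in H2-D1 they began 171 and 170, 151 and 101 bases before it. Y boxes began 16 bases before the start in H2-K1 and 76 and 53 before it in H2-D1. H2-T23 held the interferon response core 124 bases before its start and a Y box 52 before. B2m held that core 139 bases before its start, with kappa B letters at 127 and 126, a CRE core at 78 and a Y box at 53. Over windows of 300 bases (250 before to 50 after the start), which the table holds for 27 of the 31 genes and all 8 heavy chains, GTTTCACTTC was in 6 of the 8 heavy chain windows and in 0.14% of all 32851 windows. The kappa B motif was in 7 of 8 (20.7% of all windows), CCAAT in 8 of 8 (37.4%), TGACG in 6 of 8 (20.8%), the interferon response core in 2 of 8 (3.44%) and the STAT motif in 1 of 8 (8.3%). Heavy chain genes arose by duplication, so their windows are not independent. The GTTTCACTTC match in H2-K1 was fixed in advance, because the letters were read from that gene. The class I interferon element was in heavy chains called and not called: H2-K1, H2-D1 and H2-Q4 held it and rose, and H2-Q7 and H2-M3 held it and were not called. H2-Q6 held it and was not tested. H2-T22 and H2-T23 rose without it, and both held the interferon response core, in H2-T22 at position -191 from the start. That core was also in the windows of B2m, Psme1 and Erap1, which were not called. The part of these motifs in the results was not tested.

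H2-K1 (ENSMUSG00000061232.16, chromosome 17, 33996017 to 34000347, minus strand) had 357, 442 and 481 CPM in libraries 1, 2 and 3 of the control and 656, 743 and 789.6 in those of the knockout, the order in which all values are given. All knockout libraries lay above all controls, and the change was 1.71-fold (edgeR log2 fold change 0.77, SE 0.15, adjusted p = 0.00807). H2-D1 (chromosome 17, 35262730 to 35267499) had 325, 365 and 361 CPM in control and 496, 559 and 575 in knockout, a 1.55-fold rise with no overlap (0.63, SE 0.13, edgeR adjusted p = 0.00913). Per kilobase of exon, H2-K1 stood at 145 ± 21.6 CPM in control and 248 ± 23.1 in knockout cells (SD over 3 libraries), and H2-D1 at 136 ± 8.42 and 211 ± 16.1. In control the levels of this pair differed by less than the SD of H2-K1. On that scale H2-K1 and H2-D1 together made up 91.3% ± 0.29 of the summed level of the 8 heavy chains in control and 91.7% ± 1.42 in knockout, a difference smaller than its spread. The share of H2-M3 was 1.58%, 1.84% and 1.35% in control and 1.25%, 0.897% and 0.785% in knockout, without overlap.

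The remaining heavy chains had mean levels of 0.16 to 15.5 CPM per kilobase. H2-T23, which encodes Qa-1, the ligand of the NK cell receptor CD94/NKG2A (chromosome 17, 36029773 to 36032855), had 24.5, 25.2 and 26 CPM in control and 50.6, 44.3 and 39.4 in knockout (edgeR log2 fold change 0.82, SE 0.14, adjusted p = 0.0049), the largest log2 change among the 7 heavy chains tested. H2-T22, a ligand of some gamma delta T cell receptors (chromosome 17, 36037128 to 36042747), had 18.4, 20.7 and 21.6 CPM in control and 29.8, 36 and 33.5 in knockout (0.71, SE 0.14, edgeR adjusted p = 0.00884). H2-Q4 (chromosome 17, 35379617 to 35385290) had 14.9, 17.7 and 18.1 CPM in control and 33.2, 24.4 and 23.8 in knockout (0.68, SE 0.17, edgeR adjusted p = 0.0204). In each of these 3 genes the groups did not overlap. H2-M3, which presents N-formylated peptides of bacteria and mitochondria, had 6.17, 8.47 and 6.43 CPM in control and 8.30, 6.58 and 5.97 in knockout (-0.02, 95% interval -0.53 to 0.49), and the groups overlapped. H2-Q7, a Qa-2 gene, had 3, 37 and 40 counts in control and 16, 25 and 23 in knockout (-0.07, 95% interval -1.29 to 1.15). H2-Q6, with 3, 12 and 27 counts in control and 4, 7 and 5 in knockout, did not pass the filter.

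Of the 7 heavy chains tested, 0 were lower (also 0 at an unadjusted p under 0.05 and with DESeq2), and the median log2 fold change was 0.68. In all 5 were higher, 71.4% of those tested, with 11.8% higher over all genes tested. These calls depended on single libraries in 3 of the 5. Without control library 2, H2-D1 (0.66, edgeR adjusted p = 0.0525), H2-T22 (0.72, edgeR adjusted p = 0.05002) and H2-Q4 (0.71, edgeR adjusted p = 0.0781) were not called, nor was H2-Q4 without control library 1 (0.60, edgeR adjusted p = 0.0534). Without control library 2, 1.43% of all genes were called higher and 4.07% lower, and the members called were H2-K1, H2-T23 and Psmb8. Reads of related genes may have been split or dropped in counting: of the 50-base stretches in its annotated transcripts, H2-K1 shared 9.63% with another gene, H2-D1 12.8%, H2-T23 14.5%, H2-Q4 36.4%, H2-Q6 35%, H2-Q7 26.5%, H2-T22 53.5% (31.2% with H2-T10) and H2-M3 0.576%. The read length is not given in the sources used here.

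B2m, the light chain that every class I molecule needs to reach the surface (chromosome 2, 122147686 to 122153083), had 387, 483 and 518 CPM in control and 512, 612 and 492 in knockout, so the groups overlapped (log2 fold change 0.22, 95% interval -0.12 to 0.56, edgeR adjusted p = 0.309). Per kilobase of exon it was the most abundant of the class I chains, at 538 ± 78.9 CPM in control and 626 ± 75 in knockout. The ratio of H2-K1 to B2m counts within a library, with 0.5 added to each count, needs no scaling between libraries. It was 0.922, 0.914 and 0.928 in control and 1.28, 1.21 and 1.61 in knockout, a difference of 0.56 in the log2 ratio. For H2-D1 to B2m the ratios were 0.840, 0.755 and 0.696 in control and 0.969, 0.913 and 1.17 in knockout, a log2 difference of 0.41. In both the groups did not overlap, and the exact two-sided permutation test gave p = 0.1, the smallest that 3 libraries against 3 allow (0.25 adjusted over the 5 ratios compared). Both heavy chains lie on chromosome 17 and B2m on chromosome 2, so these ratios also carry any difference between those chromosomes. Median log2 fold changes were 0.38 on chromosome 17 and -0.19 on chromosome 2, and their part in the ratios was not tested.

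**Figure D2:**
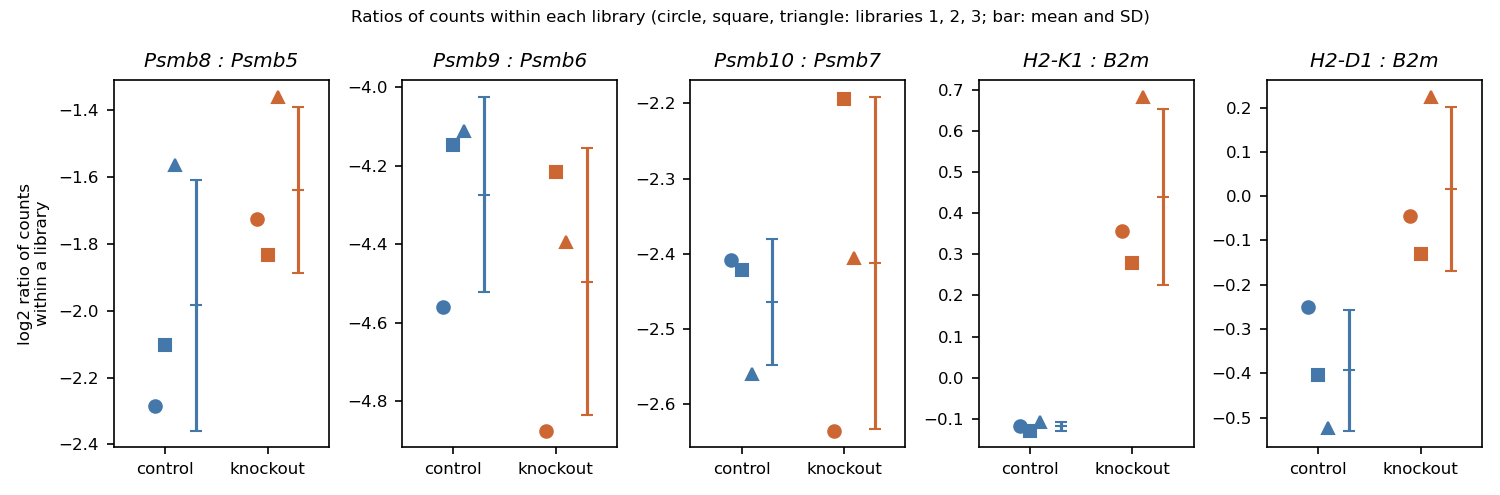
Log2 ratios of counts within each library for 3 pairs of immunoproteasome and constitutive proteasome subunits and for heavy chains against B2m, with mean and SD of 3 libraries per group. H2-K1 : B2m and H2-D1 : B2m do not overlap between groups, while the 3 proteasome ratios do.

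Nlrc5, the transactivator of class I genes, was not called: it had 20.9, 19.5 and 14.6 CPM in control and 15.9, 10.9 and 12.3 in knockout (edgeR log2 fold change -0.49, SE 0.20, adjusted p = 0.0973). Without knockout library 1 it was called lower (-0.65, edgeR adjusted p = 0.0166). Among 17 tested transcription factors of class I genes, 0 were higher and 2 lower, with a median of -0.17. The 11.8% lower lay near the share over all genes tested, of which 13.5% were lower and 11.8% higher. At an unadjusted p under 0.05 the counts higher and lower were 1 and 5, and with DESeq2 0 and 3. With edgeR the fallers were Irf7, a driver of type I interferon genes, from 3.07 ± 0.50 to 0.80 ± 0.10 CPM (-1.95, edgeR adjusted p = 0.00473), and Stat2, a subunit of the interferon-activated factor ISGF3, from 18.6 ± 5.68 to 9.35 ± 3.27 (-1.01, edgeR adjusted p = 0.0321). Irf1 (-0.26), an interferon-induced factor named after its value was seen, was not called. Of 7 interferon receptor chains and kinases, the kinases Jak2 (-0.94, edgeR adjusted p = 0.0049) and Tyk2 (-1.03, edgeR adjusted p = 0.0132) were lower and 0 were higher (2 were higher with DESeq2 and 2 at an unadjusted p under 0.05). Stat2 was not called without control library 2 or 3 or knockout library 2 or 3 (edgeR adjusted p 0.0899 to 0.137) or with length and GC trends and chromosome medians removed (-0.90, edgeR adjusted p = 0.0577), nor Tyk2 without control library 2 or knockout library 2 or 3 (0.0548 to 0.0675). Of 5 tested class I-like molecules 2 were lower and 0 higher (0 also at an unadjusted p under 0.05 and with DESeq2), with all 5 log2 fold changes below 0. These were Hfe, a regulator of iron uptake (6.86 ± 0.57 to 2.27 ± 0.06 CPM), and H2-T24, which lies among the H2 genes (4.96 ± 0.94 to 1.86 ± 0.68 CPM) and was not called without control library 2 or knockout library 2 or 3 (edgeR adjusted p 0.06 to 0.0806).

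The immunoproteasome replaces the 3 catalytic subunits of the standard proteasome with Psmb8, Psmb9 and Psmb10, and the PA28 cap (Psme1, Psme2) opens its gate. Psmb8 (chromosome 17, 34197721 to 34201454) had 39.6, 32.5 and 43.5 CPM in control and 70.1, 75.2 and 81.3 in knockout, a 1.96-fold rise without overlap (edgeR log2 fold change 0.97, SE 0.15, adjusted p = 0.00314). It had the largest log2 change of the 30 members tested and was called in each of the 14 alternative analyses. Psmb8 shared 11.9% of its 50-base stretches with other gene models, 11.6% with Gm20496. Its stretch of 200 bases, shown because it rose most, covers chr17:34197995-34198194, plus strand, and its only match is the STAT motif 97 bases before the start site. That is the RefSeq start site, and the stretch lies inside the gene as placed above by GENCODE M21.
Psmb8: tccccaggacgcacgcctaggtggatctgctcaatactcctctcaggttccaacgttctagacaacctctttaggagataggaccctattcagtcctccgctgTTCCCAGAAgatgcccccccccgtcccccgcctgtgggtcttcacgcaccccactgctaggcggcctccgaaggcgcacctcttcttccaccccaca

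Psmb9, with Tap1 between it and Psmb8 on chromosome 17, had 7.43, 7.29 and 8.03 CPM in control and 8.46, 13 and 10.2 in knockout, without overlap but not called (0.48, edgeR adjusted p = 0.116). Psmb10 had 39.6, 31 and 32.4 CPM in control and 36.2, 58 and 46 in knockout (0.45, edgeR adjusted p = 0.1), knockout library 1 lying among the controls. Without knockout library 1 both were called higher (0.60 each, edgeR adjusted p = 0.0279 and 0.00945).

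Psme2, the beta subunit of PA28 (chromosome 14, 55587441 to 55591113), had 56.3, 51.3 and 55 CPM in control and 67.6, 92.4 and 70.3 in knockout (log2 fold change 0.50, edgeR adjusted p = 0.0367). It was not called without any single one of the control libraries or without knockout library 2 or 3 (edgeR adjusted p 0.0622 to 0.153), and 28.3% of its 50-base stretches are shared with Psme2b. Psme1, the alpha subunit, had 56.6, 64.5 and 69.2 CPM in control and 64, 87.3 and 76.6 in knockout (0.26, edgeR adjusted p = 0.227). Psme3, which forms a separate nuclear cap, had 358, 304 and 311 CPM in control and 359, 382 and 389 in knockout (0.22, edgeR adjusted p = 0.222). Of these 6 genes 2 were higher (33.3%) and 0 lower (also 0 lower at an unadjusted p under 0.05 and with DESeq2). Over all genes tested, 11.8% were higher and 13.5% lower. All 6 log2 fold changes were above 0 (median 0.46).

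Of the 3 constitutive proteasome subunits that the induced ones replace, Psmb5 (154 ± 34.4 to 236 ± 29.7 CPM, log2 fold change 0.62) and Psmb6 (148 ± 24.6 to 236 ± 18.2, 0.67) rose, and Psmb7 was not called (0.37, edgeR adjusted p = 0.071). Of 13 other core and activator genes 8 were higher (61.5%) and 0 lower (also 0 lower at an unadjusted p under 0.05 and with DESeq2), with a median of 0.55. Among the higher were Psmb1 (0.89, on chromosome 17), Psmb4 (0.75) and Psmb2 (0.53). The share higher was 66.7% of the 3 catalytic subunits and 11.8% of all genes tested, of which 13.5% were lower. Psmb6 was not called without control library 2 (edgeR adjusted p = 0.0798), nor Psmb5 and Psmb2 without control library 2 or 3 or knockout library 2 or 3, nor Psmb4 without control library 2 or knockout library 2 or 3 (edgeR adjusted p 0.0534 to 0.134 over these 3 genes). With length and GC trends removed, Psmb5 (0.20, edgeR adjusted p = 0.338), Psmb6 (0.37, edgeR adjusted p = 0.0855), Psmb2 (0.13, edgeR adjusted p = 0.407) and Psmb4 (0.45, edgeR adjusted p = 0.0548) were not called, and Psmb1 was. Scaled by total counts, Psmb5 (0.47, edgeR adjusted p = 0.0561) and Psmb2 (0.37, edgeR adjusted p = 0.0592) were not called. The ratio of Psmb8 to Psmb5 counts was 0.205, 0.233 and 0.338 in control and 0.303, 0.281 and 0.39 in knockout, with overlap (log2 difference 0.35, exact permutation p = 0.3). The log2 ratio of Psmb9 to Psmb6 differed by -0.22 (exact permutation p = 0.5) and that of Psmb10 to Psmb7 by 0.05 (exact permutation p = 0.7). With 3 libraries a group, no difference in these ratios was detectable, and 0.1 is the smallest p they allow.

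**Figure D3:**
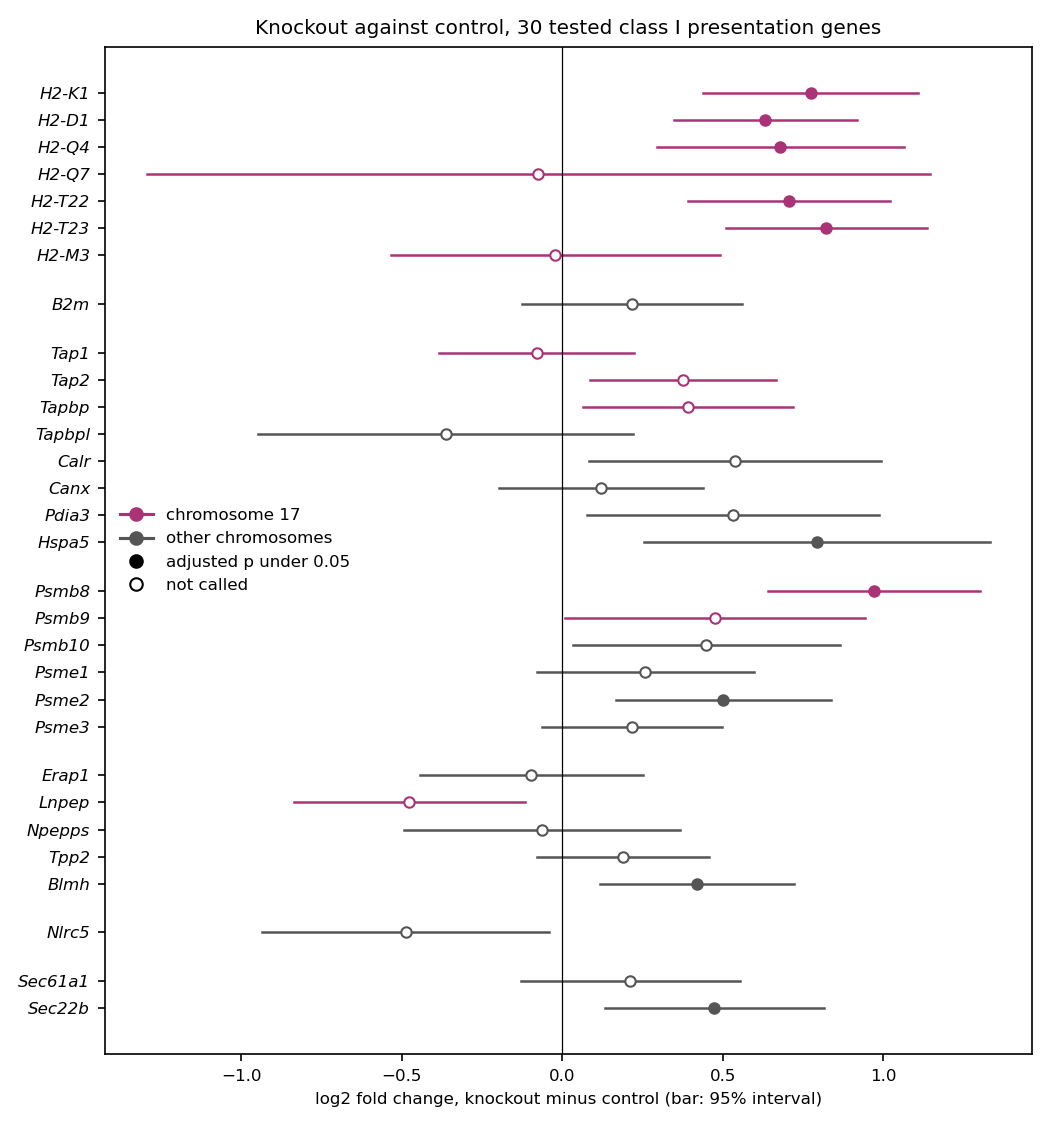
Log2 fold change (knockout minus control, edgeR) with its 95% interval for the 30 tested genes, ordered by role. Filled points passed an adjusted p of 0.05, and colour marks genes on chromosome 17. The called genes are 5 heavy chains, Hspa5, Psmb8, Psme2, Blmh and Sec22b, and Nlrc5 and Lnpep lie lowest.

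Peptide loading was mixed. Tap1, a subunit of the peptide transporter, had 19.7, 19.3 and 21.8 CPM in control and 19.7, 18.6 and 19.3 in knockout (log2 fold change -0.08, 95% interval -0.38 to 0.22). Tap2, its partner, had 37.9, 32.7 and 35.2 CPM in control and 47.7, 46.4 and 43.1 in knockout, all above control but short of the threshold (0.38, edgeR adjusted p = 0.0572). With DESeq2 it was called higher (Wald test, adjusted p = 0.0472). Tapbp, or tapasin, the bridge between TAP and the empty class I molecule, had 61.3, 56.8 and 70.4 CPM in control and 76.8, 75.6 and 95.1 in knockout (0.39, edgeR adjusted p = 0.0738), again without overlap. Tapbpl, the tapasin-related peptide editor, had 7.52, 8.24 and 6.35 CPM in control and 7.85, 4.70 and 4.68 in knockout (-0.36, edgeR adjusted p = 0.321). Without knockout library 1, Tapbp was called higher (0.44, edgeR adjusted p = 0.0328) and Tapbpl lower (-0.65, edgeR adjusted p = 0.0424). Tapbp shared 23.1% and Tap2 11.6% of their 50-base stretches with other gene models.

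The general chaperones of the endoplasmic reticulum split the knockout libraries. Hspa5, also known as BiP (chromosome 2, 34771970 to 34777547), had 1185, 1291 and 1402 CPM in control, 1341 in knockout library 1, and 2797 and 2586 in knockout libraries 2 and 3 (edgeR log2 fold change 0.79, SE 0.24, adjusted p = 0.0383). Calr, calreticulin of the peptide-loading complex, had 1081, 1073 and 1129 CPM in control, 1066 in knockout library 1, and 1749 and 1951 in the other knockouts (0.54, edgeR adjusted p = 0.0763). Pdia3, the disulfide isomerase joined to tapasin, had 769, 797 and 858 CPM in control, 788 in knockout library 1, and 1432 and 1285 in the others (0.53, edgeR adjusted p = 0.0786). Canx, calnexin, which holds newly made heavy chains, had 861, 879 and 849 CPM in control, 787 in knockout library 1, and 1062 and 964 in the others (0.12, edgeR adjusted p = 0.554). In each of the 4, knockout libraries 2 and 3 lay above every control, and knockout library 1 lay within the control range (Hspa5, Pdia3) or below it (Calr, Canx). Hspa5 was not called when any library other than knockout library 1 was left out (edgeR adjusted p 0.0681 to 0.141). Without knockout library 1, Hspa5 (1.05, edgeR adjusted p = 9.17e-05), Calr (0.75, edgeR adjusted p = 0.000574) and Pdia3 (0.74, edgeR adjusted p = 0.000758) were all called higher.

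Of the 8 loading and chaperone genes 1 was higher (12.5%) and 0 lower, near the 11.8% higher of all genes tested. At an unadjusted p under 0.05 the counts were 5 and 0, and with DESeq2 4 and 0. The median log2 fold change was 0.38. Of 14 other folding and quality control genes of the endoplasmic reticulum 4 were higher (28.6%) and 0 lower, with a median of 0.24 (also 0 lower at an unadjusted p under 0.05 and with DESeq2). The isomerases Pdia6 (576 ± 38.3 to 982 ± 250 CPM, log2 fold change 0.77) and P4hb (0.46) and Derl1 of the retrotranslocation machinery (0.48) rose. P4hb and Derl1 were not called without control library 2 or 3 or knockout library 2 or 3, nor Pdia6 without control library 1 or 2 or knockout library 2 or 3 (edgeR adjusted p 0.0538 to 0.181 over the 3 genes). Scaled by total counts, P4hb (0.31, edgeR adjusted p = 0.0904) and Derl1 (0.33, edgeR adjusted p = 0.0553) were not called, nor was P4hb with length and GC trends removed (0.30, edgeR adjusted p = 0.0963).

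Of the 5 peptidases that trim or destroy peptides, 1 was higher (20%, with 11.8% of all genes tested higher) and 0 lower (1 lower, Lnpep, at an unadjusted p under 0.05 and with DESeq2). Blmh, bleomycin hydrolase, a cytosolic aminopeptidase (chromosome 11, 76924809 to 76987379), was the one called: it had 146, 123 and 148 CPM in control and 166, 198 and 193 in knockout (edgeR log2 fold change 0.42, SE 0.14, adjusted p = 0.0462). Without any single one of the control libraries, or without knockout library 2 or 3, it was not called (edgeR adjusted p 0.0638 to 0.21). Erap1, the aminopeptidase that trims peptides inside the endoplasmic reticulum, had 51.8, 48.5 and 47.9 CPM in control and 55.9, 43.5 and 39.2 in knockout (-0.10, edgeR adjusted p = 0.669), knockout library 1 being the highest of the 6 and libraries 2 and 3 the lowest. Lnpep, or IRAP, which trims peptides in endosomes, had 136, 188 and 173 CPM in control and 139, 114 and 105 in knockout (-0.48, edgeR adjusted p = 0.0548), and was called lower without knockout library 1 (-0.60, edgeR adjusted p = 0.00843) or control library 1 (-0.60, edgeR adjusted p = 0.0344). Npepps, a cytosolic aminopeptidase, had 113, 151 and 162 CPM in control and 102, 148 and 159 in knockout (-0.06, edgeR adjusted p = 0.831). Tpp2, a large tripeptidyl peptidase, had 179.5, 180.0 and 184 CPM in control and 204, 223 and 192 in knockout, all above control but not called (0.19, edgeR adjusted p = 0.265). It was called higher when length and GC trends were removed, but not when chromosome medians were removed too. The median of the 5 was -0.06, below that of the heavy chains (0.68), the PA28 and immunoproteasome genes (0.46) and the loading genes (0.38).

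Of the 2 genes of cross-presentation traffic, Sec22b, a SNARE protein that brings endoplasmic reticulum membrane to phagosomes (chromosome 3, 97901190 to 97923276), had 89.3, 77.1 and 76.6 CPM in control and 91.6, 128 and 118 in knockout (edgeR log2 fold change 0.47, SE 0.15, adjusted p = 0.0463). It was not called without any single one of the control libraries or without knockout library 2 or 3 (edgeR adjusted p 0.0525 to 0.172). Sec61a1, the channel of the translocon, had 263, 217 and 199.7 CPM in control and 263, 228 and 296 in knockout (0.21, edgeR adjusted p = 0.322). Among 14 other tested genes of cross-presentation 2 were higher (14.3%) and 5 lower (35.7%), with 11.8% and 13.5% over all genes tested. Sec61b, a small subunit of the same translocon, rose from 71.9 ± 19.1 to 136 ± 28.4 CPM, Cybb, a subunit of the phagocyte oxidase, fell from 6.75 ± 3.44 to 0.22 ± 0.20 (6, 1 and 3 counts in knockout libraries), and the DNA receptor Tlr9 fell from 10.3 ± 1.71 to 4.46 ± 2.13. Sec61b was not called without control library 2 or knockout library 2, nor Tlr9 without control library 1 or 2 or knockout library 2 or 3 (edgeR adjusted p 0.057 to 0.095). With length and GC trends removed, Sec61b was at 0.55 (edgeR adjusted p = 0.0516), and at 0.50 (edgeR adjusted p = 0.069) with chromosome medians removed too.

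Without knockout library 1, 15 of the 31 members then tested were higher and 3 lower, with 20% of all genes higher and 22.3% lower. All 10 genes called with 6 libraries were among the 15, and the additions were Tapbp, Calr, Pdia3, Psmb9 and Psmb10. Against the control range, knockout library 1 had 15 of 30 tested members above and 3 below, knockout library 2 had 21 above and 5 below, and knockout library 3 had 21 above and 6 below. The 5 heavy chains that rose and Psmb8 lay above the control range in every knockout library.

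The H2 genes lie on chromosome 17. Of the 13 tested members on chromosome 17, 6 were higher (46.2%, median log2 fold change 0.48), and of the 17 on other chromosomes 4 (23.5%, median 0.22). The H2 members span 3.28 Mb (chromosome 17, 33996017 to 37274484), which also holds Tap1, Tap2, Psmb8 and Psmb9. In that stretch 6 of 11 tested members were higher (median 0.63), and so were 37 of 79 other tested genes (46.8%, median 0.43), with 3 lower. Elsewhere on chromosome 17, 35.3% of 501 tested genes that are not members were higher (median 0.36), against 10.4% of 10698 genes on other chromosomes (median -0.01). Chromosome 17 had the highest median (0.38) of the 20 chromosomes with enough tested genes, and chromosome 16 followed at 0.24. Tap1, H2-M3 and H2-Q7 in the stretch and Lnpep elsewhere on the chromosome lay at -0.08, -0.02, -0.07 and -0.48, below the chromosome's median.

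**Figure D4:**
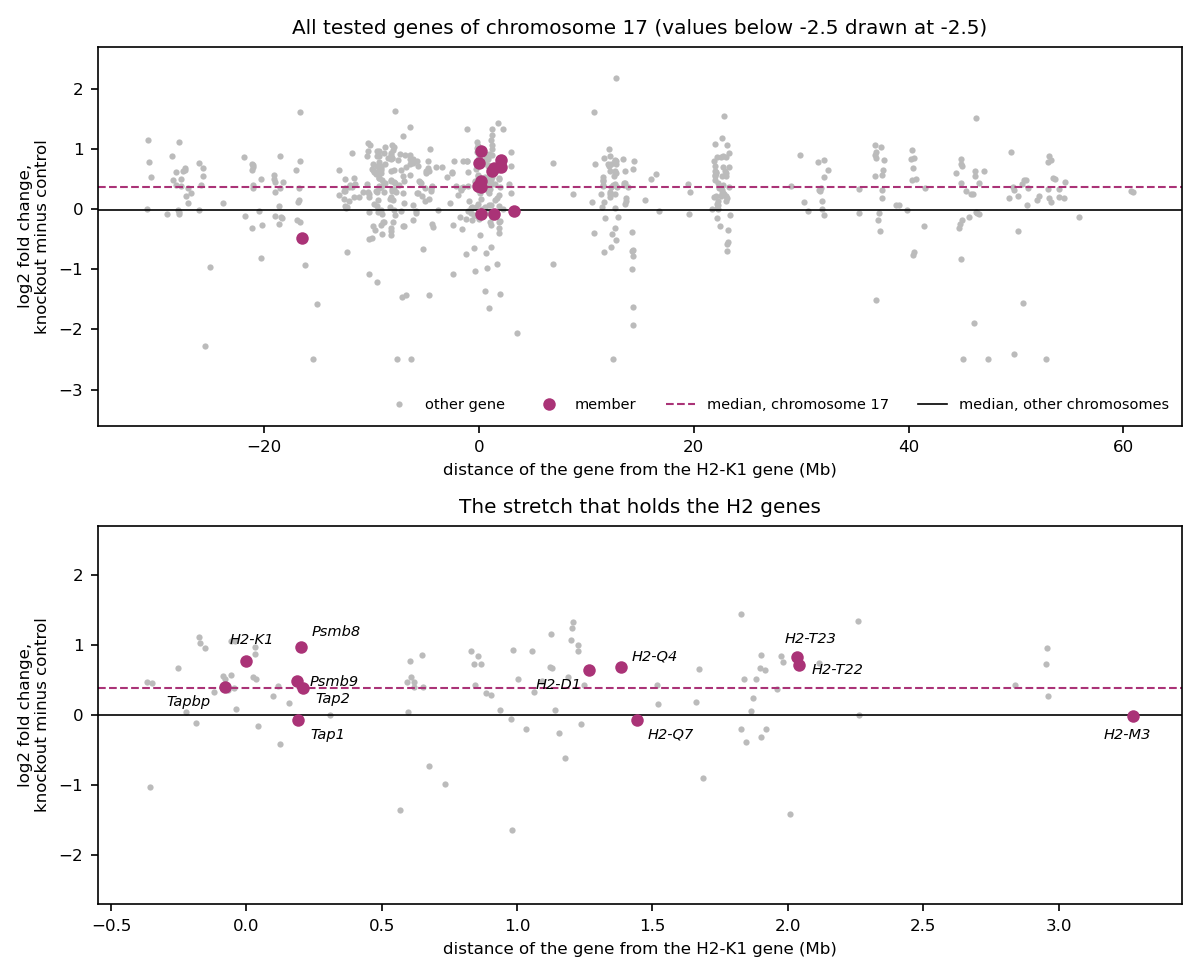
Log2 fold change (knockout minus control) of tested genes of chromosome 17 by distance in Mb from H2-K1, for the whole chromosome (top) and the stretch of the H2 genes (bottom). The dashed line is the chromosome's median (0.38) and the solid line that of the other chromosomes (-0.01); of the 593 tested genes 37.1% were called higher, and Psmb8, H2-K1 and H2-T23 lie above the dashed line.

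When the trend of each library with exon length and GC content was removed, 10.1% of all genes were higher and 10.5% lower, and 7 members were higher and 0 lower. H2-K1 (0.62), H2-D1 (0.42), H2-T22 (0.58), H2-T23 (0.67), Psmb8 (0.87) and Blmh stayed called, and Tpp2 was called in addition. No longer called were H2-Q4 (0.48, edgeR adjusted p = 0.0872), Psme2 (0.17, edgeR adjusted p = 0.306), Hspa5 (0.71, edgeR adjusted p = 0.0514) and Sec22b (0.36, edgeR adjusted p = 0.0766). When the median of each chromosome was removed as well, 6.8% of all genes were higher and 8.56% lower, and 3 members were higher and 1 lower. None of the 7 tested heavy chains was then called: H2-K1 was at 0.27 (edgeR adjusted p = 0.197), H2-T23 at 0.32 (edgeR adjusted p = 0.142), H2-T22 at 0.23 (edgeR adjusted p = 0.206), H2-Q4 at 0.14 (edgeR adjusted p = 0.625), H2-D1 at 0.08 (edgeR adjusted p = 0.644), H2-Q7 at -0.41 (edgeR adjusted p = 0.639) and H2-M3 at -0.71 (edgeR adjusted p = 0.0886). Psmb8 (0.52, edgeR adjusted p = 0.0269), Hspa5 (0.91, edgeR adjusted p = 0.0315) and Blmh (0.53, edgeR adjusted p = 0.027) were still higher, and Lnpep was lower (-0.42, edgeR adjusted p = 0.0368). Whether the heavy chain rise and the level of the whole chromosome have a common origin was not tested.

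**Figure D5:**
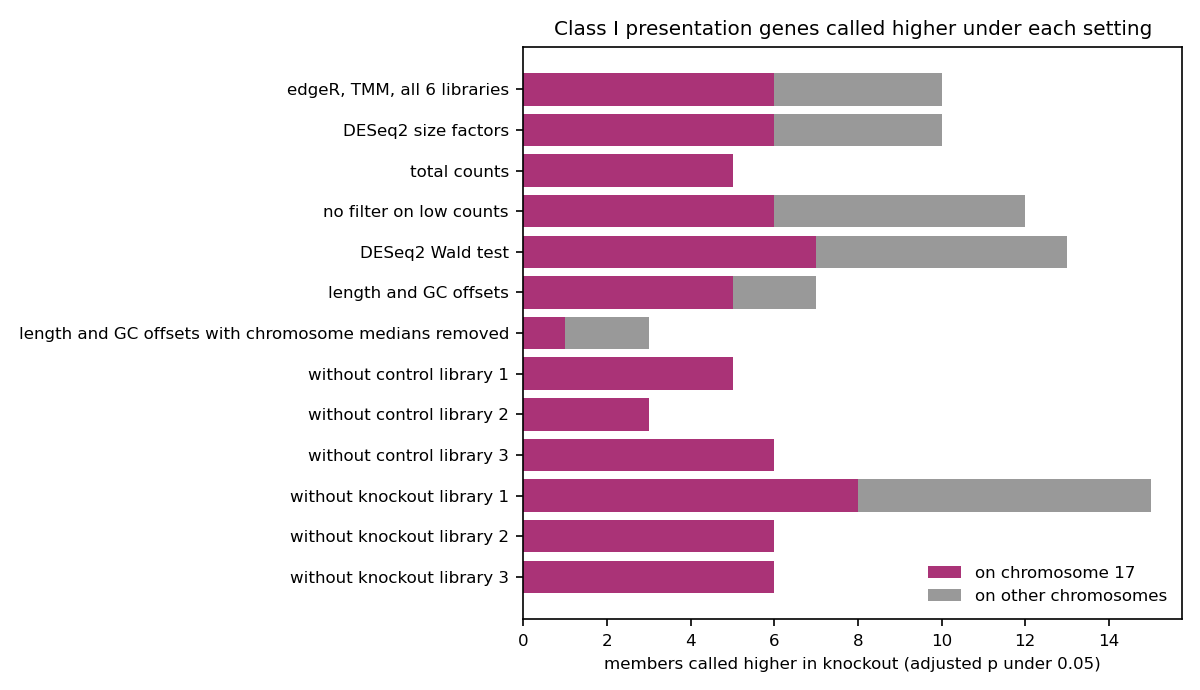
Number of members called higher (adjusted p under 0.05) under each analysis setting except those with the replicate number as a block, split by chromosome 17 and other chromosomes. With all 6 libraries 10 are called; the count is 3 with chromosome medians removed and 3 without control library 2, and 15 without knockout library 1.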

How the data were processed

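Total RNA was isolated with TRIzol, and a KAPA Hyper Prep kit made the libraries, per the labels' protocols. The submitters' processing notes name Trimmomatic 0.39, STAR 2.7.5c, StringTie 2.1.7 and build mm10. The deposited values are whole-number read counts per gene symbol, unscaled. Overlapping or antisense genes cannot be separated, because counting step, annotation release, strand setting and read length were not given in the sources used here.

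Columns were matched to samples by name. Of 31205 genes, 18546 had a count and 11453 passed filterByExpr. Knockout was tested against control with edgeR 4.0.16 (limma 3.58.1, R 4.3.3): TMM factors, quasi-likelihood F test, two-sided, Benjamini-Hochberg adjustment over all genes tested, threshold 0.05. The common biological coefficient of variation was 17.5%. Log2 fold changes are knockout minus control. GENCODE M21 gave positions, exon length and GC content, for a genome of the same build (98.6% of tested genes matched). All members were described, and of each pathway list the called genes with the lowest adjusted p (at most 3). Members and lists were chosen with earlier results of these data known. The motif GTTTCACTTC was chosen from the H2-K1 promoter after the other motifs. Protein sequences were not used here. Scripts were tested on simulated counts. Alternatives were other scalings, no filter, DESeq2 1.42.0, the replicate number as a block, length and GC offsets (loess, span 0.3) alone or with chromosome medians, and leaving out each library.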

Additional observations from a re-analysis of the deposited data

How the results depend on the processing

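With DESeq2 size factors no call of a member changed. Scaling by total counts put the all-gene median at -0.14: 667 genes were higher (23.2% of calls, in place of 46.7%), 5 members were higher and 1 lower, with 0 of the loading genes, 1 of the immunoproteasome and PA28 genes and 0 of the peptidases higher, and Canx was at -0.038. Without the filter on low counts 1 member was lower and 3 loading genes were higher, and with DESeq2's Wald test 1 and 4. With length and GC offsets 0 loading genes, 1 immunoproteasome or PA28 gene and 2 peptidases were higher, and these not called genes changed sign: B2m (-0.12), Tap1 (0.059), Psme1 (-0.0027), Erap1 (0.012) and Npepps (0.081). With chromosome medians removed too, 779 genes were higher and 980 lower, 3 members were higher and 1 lower, with 0 heavy chains and 1 immunoproteasome or PA28 gene higher, and Npepps was at 0.15.

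Whether replicate numbers pair the libraries could not be told. Deviations of same-numbered libraries 1, 2 and 3 correlated at 0.15, -0.06 and 0.36, and those of differently numbered libraries at -0.32 to 0.14. Control library 2 correlated best with knockout library 1 (0.14). With the replicate number as a block, 1480 genes were higher and 1732 lower, 8 members were higher (Blmh and Sec22b were not called), 0 peptidases were higher and H2-Q7 was at 0.069. With the block and the length and GC offsets, 1 immunoproteasome or PA28 gene and 2 peptidases were higher, and H2-Q7 (0.079), B2m (-0.13), Tap1 (0.064), Psme1 (-0.0016), Erap1 (0.00058) and Npepps (0.064) changed sign. In the ratios the paired mean difference equals the unpaired one.

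Leaving out 1 library in turn gave 166 to 2346 genes higher and 472 to 2616 lower, 3 to 15 members higher and 0 to 3 lower, 2 to 5 heavy chains, 0 to 4 loading genes, 1 to 4 immunoproteasome and PA28 genes and 0 to 1 peptidases higher. The log2 fold changes ranged from -0.49 to 0.39 for H2-Q7, -0.17 to 0.14 for H2-M3, -0.26 to 0.016 for Erap1 and -0.20 to 0.10 for Npepps, and the log2 ratio of Psmb10 to Psmb7 from -0.057 to 0.16. Where the text names no cause for a changed value, the cause was not tested. With the block and the length and GC offsets Stat2 (-0.88), Derl1 (0.33) and P4hb (0.30) were not called. H2-Q6 and H2-Q7 had at most 27 and 40 counts in a library, which limits the precision of their values.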

Other observations

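Class II presentation genes, which load peptides for CD4 T cells, were not called: of 4 tested, 0 were higher and 0 lower (also 0 and 0 at an unadjusted p under 0.05 and with DESeq2), with a median log2 fold change of 0.04. The genes of this list are named after their values were seen. The invariant chain Cd74 had 242 ± 15.4 CPM in control and 256 ± 35.5 in knockout cells (SD over 3 libraries), while H2-Aa had at most 11 counts in any library. The chain H2-Eb1, on chromosome 17 beside the class I genes, had 14.9 ± 5.05 CPM in control and 14.9 ± 8.46 in knockout (-0.003, edgeR adjusted p = 0.997).

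Of 9 other cytosolic peptidases, Dpp8, a dipeptidyl peptidase, was lower (122 ± 10.5 to 78.5 ± 18 CPM, log2 fold change -0.63, edgeR adjusted p = 0.0242) and 0 were higher (1 at an unadjusted p under 0.05, 0 with DESeq2). It was not called without control library 2 or 3 or knockout library 2 or 3 (edgeR adjusted p 0.0566 to 0.112), nor with length and GC trends removed (-0.23, edgeR adjusted p = 0.174) or chromosome medians too (-0.13, edgeR adjusted p = 0.417). Of 9 genes of cargo export from the endoplasmic reticulum, Sar1b, a COPII GTPase, was higher (62.7 ± 6.68 to 93.3 ± 19.7 CPM, 0.57, edgeR adjusted p = 0.0382) and 0 were lower (1 at an unadjusted p under 0.05, 0 with DESeq2). In each of these lists 11.1% were called, near the 11.8% higher and 13.5% lower of all genes tested. Sar1b was not called without any single one of the control libraries or without knockout library 2 or 3 (edgeR adjusted p 0.0525 to 0.147), nor with total counts (0.41, edgeR adjusted p = 0.1), with length and GC trends removed (0.23, edgeR adjusted p = 0.206) or with chromosome medians removed too (0.29, edgeR adjusted p = 0.133).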
